A study of Mus musculus with 12 samples.

Results

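Hearts with a deleted Nkx2-5 allele were compared directly with hearts in which the same allele makes a substituted protein. The arrays were chosen by the genotype in their titles: 3 of Nkx2-5 delta/+ hearts, in which 1 allele is fully deleted, and 3 of Nkx2-5 I183P/+ hearts, in which 1 allele codes for proline in place of an isoleucine. They make up 6 of the 12 arrays of the series, and both groups keep a + allele. All samples were total RNA from the heart apex of 15-week-old male C57BL/6J mice, hybridised with Cy3 label to single-colour Agilent arrays. The other 6 arrays, 3 of Nkx2-5 I183M/+ hearts (methionine in place of the isoleucine) and 3 of Nkx2-5 control/+ hearts (a knock-in that keeps the isoleucine), are given only as context. Whether replicates are separate animals is not stated in the labels, and the p-values below therefore measure only the spread between these samples.

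NKX2-5 is a homeodomain transcription factor of heart muscle that binds DNA together with partners such as GATA4 and TBX5. It is needed for heart formation in the embryo and, in the adult, for the conduction system and for normal heart muscle. The isoleucine lies in the homeodomain, the part that contacts DNA, so the comparison sets the loss of 1 copy of the factor against the presence of a copy with an altered DNA-binding part.

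A level below is the log2 of an array's processed intensity relative to that array's 75th percentile, and a difference is the log2 difference delta minus I183P. Levels are comparable between arrays for 1 gene, not between genes. The share of spots well above background, out of 59305, was 51.3% to 75.2% on the 6 arrays, and no spot was saturated. Delta replicate 2 stood apart: the median of its processed intensity was 82.2 (35.0 to 45.1 for the other 5), and its best rank correlation with another of the 6 arrays was 0.974, against 0.982 for delta replicate 3 and 0.989 to 0.991 for the other 4. I183P replicates 1 and 2 were hybridised on slide 1, and I183P replicate 3 and all delta arrays on slide 2. The heart identity of the samples was plain: all 16 of 16 ventricular cardiomyocyte genes were well above background on all 6 arrays, as were 19 of 29 listed skeletal muscle, 6 of 14 liver and 4 of 13 thymus markers, while 3, 4 and 2 of these were above background on none, among them Myod1 and Mylpf of skeletal muscle, Alb and Apoa1 of liver and Rag1 of thymus.

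The deleted gene itself was lower on every delta array. The Nkx2-5 level was 4.96, 4.76 and 4.72 on the 3 I183P arrays and 3.98, 3.97 and 4.14 on the 3 delta arrays. The groups did not overlap, and the highest delta array lay well below the lowest I183P array. The difference was -0.78 (SE 0.12), a delta level 0.582 times that of I183P, and it ranged from -0.84 to -0.71 when each array was left out in turn. In the limma fit on the 6 arrays its adjusted p was 0.317, and the exact two-sided permutation test gave p = 0.1, the smallest value that 3 against 3 arrays allow. With the spread estimated over 11 arrays (the 6 with the I183M arrays and control replicates 2 and 3), limma gave an adjusted p of 0.0342, and over all alternatives it lay between 0.00872 and 1.00. The I183P levels lay near those of the other undeleted lines: 4.74 to 4.83 for I183M and, for control replicates 2 and 3, 4.68 and 4.78, while control replicate 1, on which 99.1% of spots were above background, read 3.17.

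The genes around Nkx2-5 showed no such step. Of the 20 protein-coding genes on either side of it, 33 of 40 were measured, and 0 reached an unadjusted p under 0.05 in limma or passed in any of the alternatives. Their differences ran from -0.47 (Neurl1b) to 1.04 (Grm4) with a median of 0.01, and the nearest neighbours on the same side, Bnip1 and Crebrf, differed by -0.01 and -0.02. The groups did not overlap in 6 of the 33 genes, 4 with higher and 2 with lower delta levels, beside 21.3% of all 23870 features tested.

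**Figure D1:**
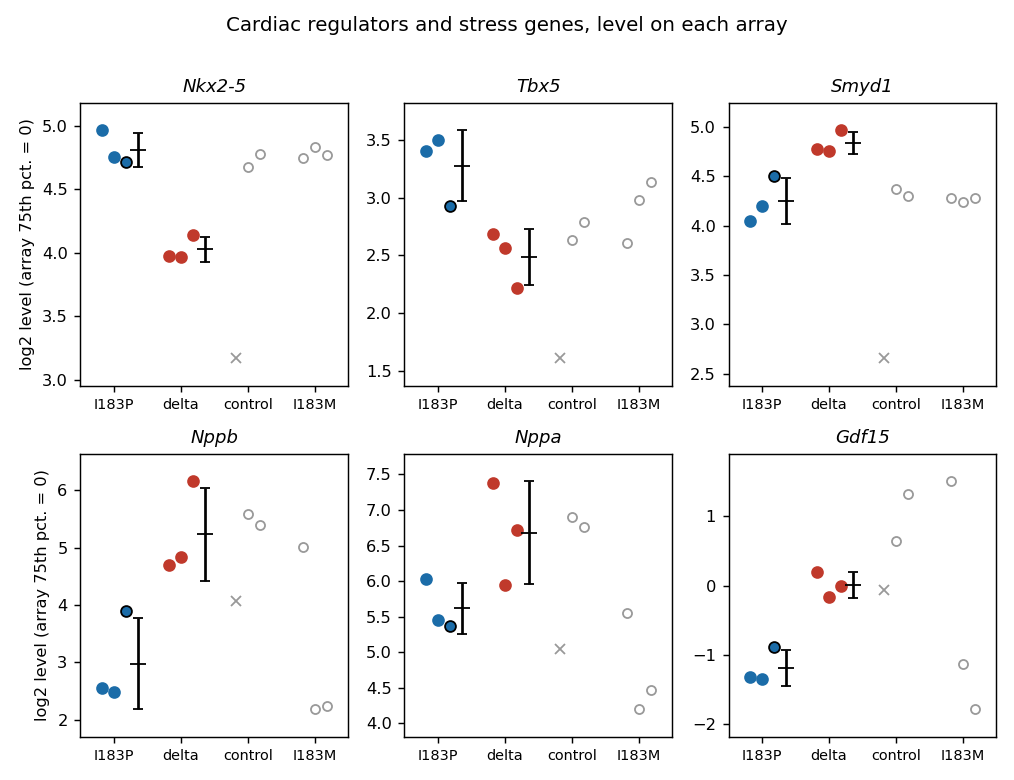
Level of Nkx2-5, Tbx5, Smyd1, Nppb, Nppa and Gdf15 on each of the 12 arrays, as log2 intensity relative to the array's 75th percentile. Filled blue points are I183P (black rim: replicate 3, on the slide of the delta arrays), filled red points delta, open grey points control and I183M, and the cross control replicate 1; bars give the mean and SD of 3 arrays. The delta arrays sit below every I183P array for Nkx2-5 and Tbx5 and above every one for Smyd1, Nppb and Gdf15, while for Nppa delta replicate 2 falls below I183P replicate 1.

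Across the array, no single feature passed the test on the 6 arrays. Of 23870 genes or unnamed features tested, 14857 of them with a symbol, 0 passed limma's adjusted p of 0.05 (0%) on the 6 arrays, and the smallest adjusted p was 0.173. At an unadjusted p under 0.05 stood 2784 features (11.7%), of which 1763 read higher in delta (7.39%) and 1021 lower (4.28%). In 5073 features (21.3%) the groups did not overlap, with delta above in 3251 (13.6%) and below in 1822 (7.63%). Among the features with a symbol alone, 5.07% read higher and 4.27% lower at that p. Their median difference was 0.03, and the groups did not overlap in 19.5% of them. The gene lists hold only genes with a symbol, so these shares are their closer background. In the gene lists below, higher and lower counts without a stated test are also at an unadjusted limma p under 0.05. The median difference of all features was 0.08. With normexp background correction and quantile normalization it was -0.01, 2 features passed (0.00838%; 1 in each direction, 0.00419%), and 46.4% of the features at an unadjusted p under 0.05 read higher in delta, against 63.3% on the processed intensity. Normexp was run with an offset of 50 added to each corrected intensity, which draws the differences of dim probes towards 0, real or not. Subtracting each array's median in place of its 75th percentile moved the median of all features to -0.34. The medians of the gene lists below moved with it, and 251 features then passed.

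With the spread taken over 11 arrays, 17 of 23852 features passed (0.0713%), 5 higher (0.021%) and 12 lower (0.0503%) in delta. The 8 with a symbol were Ucp3, Pde5a, Slc49a4, Dipk1b, Nkx2-5, Emilin3 and Olfr612, lower in delta, and Sprr1a, higher. Olfr612 was above background on no delta array and was thus tested only through its I183P arrays. Normexp and quantile normalized values of the same 11 arrays gave 23 passing features (0.0964%), 7 higher (0.0293%) and 16 lower (0.0671%), 10 of them with a symbol, and 12 of the 23 were among the 17. There Olfr612 and Sprr1a no longer passed, and Zc3h6, Eml3 and Chst3 (lower) and Gm6787 (higher) did. With all 12 arrays in one fit on the processed intensity, control replicate 1 included, 0 features passed in limma.

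**Figure D2:**
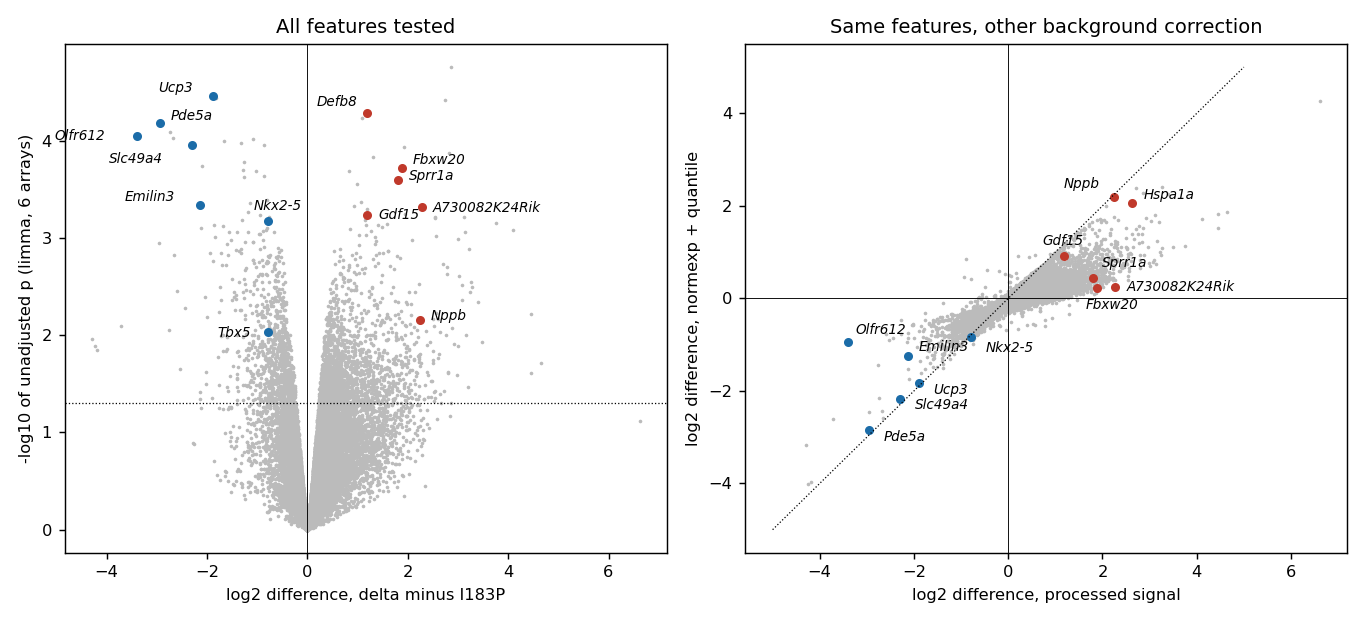
Left, log2 difference (delta minus I183P, horizontal axis) against -log10 of limma's unadjusted p for all 23870 features tested; the dotted line marks a p of 0.05. Right, the same differences (horizontal axis) against those after normexp and quantile normalization, with a dotted line where both are equal. Ucp3, Pde5a, Slc49a4, Nkx2-5 and Nppb keep their size on the right, while many features with high delta values on the processed intensity, such as Sprr1a, Fbxw20 and A730082K24Rik, lie near 0 there. The offset added with normexp by itself draws dim features towards 0.

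Pde5a, which codes for an enzyme that degrades cyclic GMP, differed most among the symbols that passed on 11 arrays and were above background in both lines. Its level was 3.26, 3.38 and 2.37 on the I183P arrays and -0.08, 0.22 and 0.04 on the delta arrays. All delta arrays lay far below all I183P arrays, and among the I183P arrays the one on the delta slide was the lowest. The difference was -2.95 (SE 0.29), a level 7.70 times as high in I183P, with a limma adjusted p of 0.173 on 6 arrays and 0.0118 on 11 (1.4e-08 to 0.893 over all alternatives). Against I183P replicate 3 alone, on the same slide, the difference was -2.31. The I183M arrays read 3.03 to 3.77 and control replicates 2 and 3 4.19 and 4.17, so delta was also the line apart from these.

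Slc49a4, a membrane transporter of the lysosome, had the same layout. It read 2.38, 2.66 and 1.72 in I183P and -0.06, -0.04 and -0.03 in delta. The delta arrays were nearly equal to each other and below every I183P array, where replicate 3 was again the lowest. The difference was -2.29 (SE 0.25), with a limma adjusted p of 0.0197 on 11 arrays and 2.6e-05 to 0.893 over all alternatives. Dipk1b read 2.23, 2.30 and 2.17 in I183P and 1.48, 1.35 and 1.25 in delta, a difference of -0.87 (SE 0.11) without overlap. Its limma adjusted p was 0.0232 on 11 arrays, within 0.0109 to 1.00 over all alternatives. Zc3h6, a zinc finger gene, read 1.30, 1.23 and 1.22 against 0.44, 0.36 and 0.37, and its 3 tested probes differed by -0.86, -0.94 and -1.11. It read 0.14 to 0.62 in I183M and 0.69 and 0.71 on control replicates 2 and 3, so for this gene the I183P arrays were the highest of all.

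In fuel use, 1 gene passed on 11 arrays and several others read lower in delta than in I183P. Ucp3, a carrier of the inner mitochondrial membrane that is induced when fatty acids are burned, read 2.74, 2.65 and 2.56 in I183P and 1.04, 0.49 and 0.76 in delta. All delta arrays lay below all I183P arrays, with a gap larger than the spread within either group. The difference was -1.89 (SE 0.17), a delta level 0.270 times that of I183P, and a second probe of the gene gave -0.81. The limma adjusted p was 0.173 on 6 arrays, 0.0183 on 6 arrays with normexp and quantile normalization and 0.0118 on 11 arrays, within 7.4e-04 to 0.893 over all alternatives. Both groups lay outside the other lines: I183M read 1.43 to 1.82 and control replicates 2 and 3 2.09 and 2.08, below I183P and above delta.

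No other listed gene of fatty acid uptake and oxidation passed under limma on the 6 or the 11 arrays, but those with an unadjusted p under 0.05 all read lower in delta. Of 51 tested genes on this list, 4 were lower (7.84%, beside 4.28% of all features) and 0 higher at that level. The median difference was -0.07, between -0.49 and 0.10 over the alternatives, beside 0.08 for all features. Against I183P replicate 3 alone, on the delta slide, it was 0.10, near the 0.09 of all features. Pdk4, the kinase that shuts off glucose oxidation, read 8.02, 8.06 and 7.59 in I183P and 6.60, 5.71 and 7.24 in delta. Angptl4, a fasting-induced inhibitor of lipoprotein lipase, read 4.93, 5.04 and 5.39 in I183P and 4.14, 2.73 and 4.33 in delta. For both genes the groups did not overlap, the spread within delta was the wider one, and delta replicate 2 was the lowest. Their differences were -1.38 (SE 0.40) and -1.38 (SE 0.44), with limma adjusted p of 0.408 and 0.414. Cpt1a, which brings fatty acids into mitochondria, differed by -0.36 (SE 0.14).

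Ehhadh, an enzyme of peroxisomal fatty acid oxidation that was picked after its values were seen, read 2.22, 1.83 and 1.60 in I183P and 0.39, 0.16 and 0.86 in delta. The groups stood clearly apart, at a difference of -1.42 (SE 0.24, limma adjusted p 0.317). For Acot1, a thioesterase of long fatty acids picked in the same way, the groups overlapped, at a difference of -0.44 (SE 0.50), or 0.19 against I183P replicate 3 alone. Txnip, which restrains glucose uptake, differed by -1.15 (SE 0.42).

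On the glucose side, 2 of 36 tested genes read higher and 2 lower at an unadjusted p under 0.05 in limma. These are 5.56% each, beside 7.39% higher and 4.28% lower of all features. The list median was 0.01 (from -0.41 to 0.11 over the alternatives). Slc2a1, the glucose transporter GLUT1, differed by 0.34 (SE 0.10), but by -0.08 with each array's median in place of its 75th percentile. Ppp1r3c, which directs glycogen synthesis, read 3.70, 3.41 and 3.94 in I183P and 4.50, 4.32 and 5.37 in delta, with delta higher on every array. Its difference was 1.04 (SE 0.31, limma adjusted p 0.413). Control replicates 2 and 3 read 4.75 and 4.69, within the delta range, and I183M read 3.70 to 4.61. Pfkfb1, which sets the signal that drives glycolysis, read 4.37, 4.38 and 4.04 against 3.62, 3.75 and 3.51, a difference of -0.63 (SE 0.14). Delta was the lower group there, again with no overlap.

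**Figure D3:**
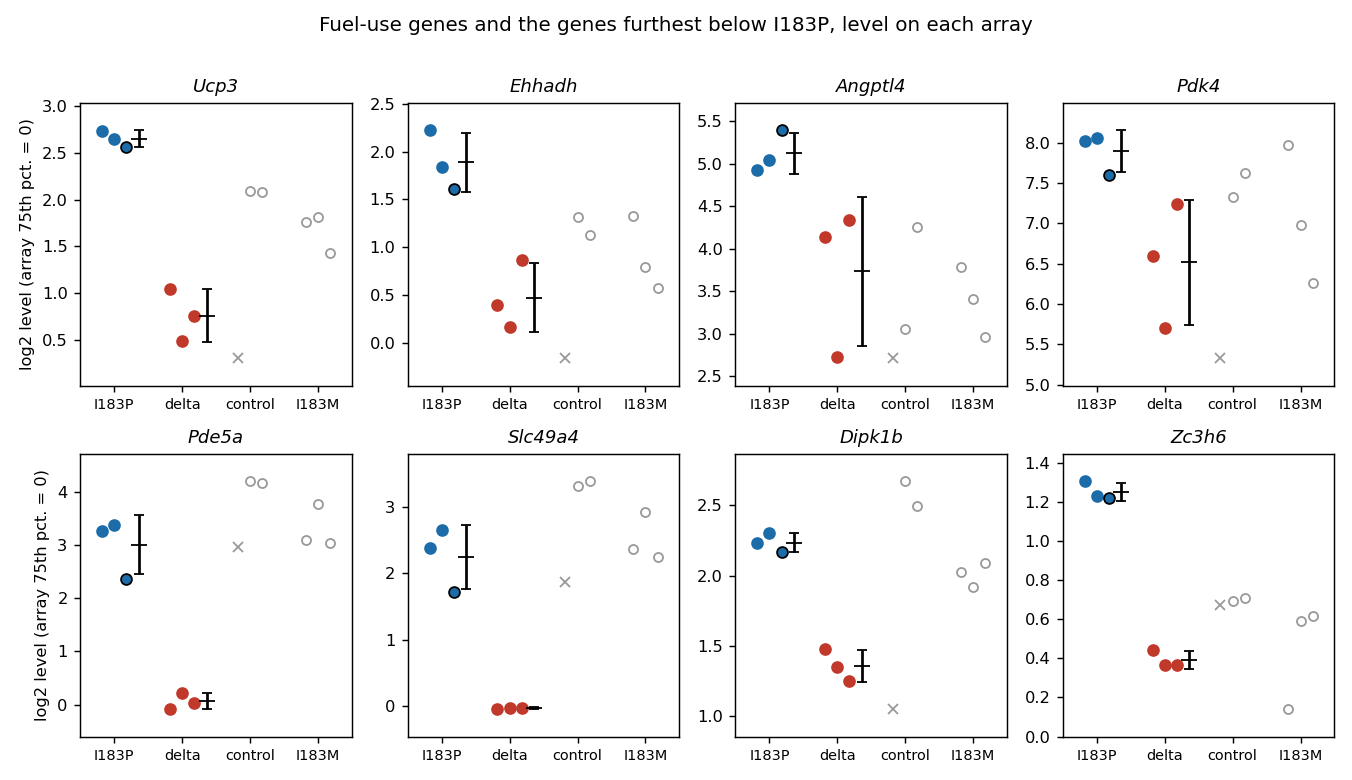
Level of Ucp3, Ehhadh, Angptl4, Pdk4, Pde5a, Slc49a4, Dipk1b and Zc3h6 on each of the 12 arrays, as log2 intensity relative to the array's 75th percentile, with symbols as in the plot of cardiac regulators. In all 8 panels the delta arrays lie below the I183P arrays; for Pde5a, Slc49a4 and Dipk1b they also lie below every control and I183M array except control replicate 1 for Dipk1b, while for Ucp3, Ehhadh, Angptl4 and Zc3h6 the I183P arrays are the highest.

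Several natriuretic peptide and related stress genes had higher levels in delta than in I183P, though none passed the adjusted threshold. Of 20 tested genes on that list, 6 were higher (30.0%, beside 7.39% of all features) and 0 lower at an unadjusted p under 0.05 in limma. Without overlap, 7 stood above (35.0%, beside 13.6% of all features). The list median was 0.21 (from -0.21 to 0.38 over the alternatives, negative only with each array's median in place of its 75th percentile), and 0 passed on 6 or 11 arrays. Nppb, which codes for B-type natriuretic peptide, read 2.55, 2.48 and 3.90 in I183P and 4.69, 4.84 and 6.15 in delta. Every delta array was above every I183P array, and I183P replicate 3 stood nearest to delta. The difference was 2.25 (SE 0.55), or 4.76-fold, with a limma adjusted p of 0.380, and it was 1.33 against I183P replicate 3 alone. On control replicates 2 and 3 the gene read 5.58 and 5.39, within the delta range, while I183M read 5.02, 2.19 and 2.25.

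Nppa, which codes for atrial natriuretic peptide and is on the lists of atrial genes and of reported Nkx2-5 targets, read 6.03, 5.45 and 5.37 in I183P and 7.38, 5.94 and 6.72 in delta. Here the groups overlapped, since delta replicate 2 was below I183P replicate 1. The difference was 1.06 (SE 0.40, limma adjusted p 0.423). Control replicates 2 and 3 read 6.91 and 6.76, within the delta range, and I183M read 4.19 to 5.55. Gdf15, a secreted stress hormone, read -1.31, -1.35 and -0.89 in I183P and 0.20, -0.17 and -0.00 in delta. The delta arrays lay above all I183P arrays at a difference of 1.19 (SE 0.18, limma adjusted p 0.317). Control replicates 2 and 3 read higher still, at 0.63 and 1.32, and the I183M arrays alone spanned -1.78 to 1.50. On 11 arrays the limma adjusted p was 0.425 (0.129 to 1.00 over all alternatives).

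Among other members of this group, Myh7b, a myosin heavy chain gene, differed by 0.53 (SE 0.16) and Npr3, the receptor that clears natriuretic peptides, by 0.43 (SE 0.13), both without overlap. Myh7, the slow myosin of the fetal and stressed heart, read higher by 1.21 with an SE of 0.58. The ventricular cardiomyocyte markers as a whole had a median of 0.04, with 0 of 16 at an unadjusted p under 0.05 in limma.

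The stretches just upstream of Nppb and Nppa are shown because these neighbouring genes read higher on average in delta than in I183P. That of Ucp3 is shown because it is the named gene with the smallest limma p. Each is the 250 bases before the annotated start, 5′ to 3′ on the + strand, from RefSeq on build GRCm38.p6. Capitals mark the letters AAGTG, the core that NK-2 homeodomains bind, on either strand (CACTT). The windows are chr4:147985650-147985899 for Nppb, chr4:148000472-148000721 for Nppa and chr7:100472741-100472990 for Ucp3.
Nppb: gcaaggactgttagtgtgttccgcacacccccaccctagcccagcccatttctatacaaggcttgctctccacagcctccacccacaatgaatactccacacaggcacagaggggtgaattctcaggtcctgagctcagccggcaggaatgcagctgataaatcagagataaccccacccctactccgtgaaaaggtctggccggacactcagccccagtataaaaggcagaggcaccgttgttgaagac
Nppa: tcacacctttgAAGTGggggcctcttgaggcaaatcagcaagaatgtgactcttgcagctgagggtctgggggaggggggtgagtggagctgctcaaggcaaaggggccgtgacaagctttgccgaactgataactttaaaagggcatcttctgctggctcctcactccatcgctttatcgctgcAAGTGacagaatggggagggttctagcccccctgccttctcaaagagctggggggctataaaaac
Ucp3: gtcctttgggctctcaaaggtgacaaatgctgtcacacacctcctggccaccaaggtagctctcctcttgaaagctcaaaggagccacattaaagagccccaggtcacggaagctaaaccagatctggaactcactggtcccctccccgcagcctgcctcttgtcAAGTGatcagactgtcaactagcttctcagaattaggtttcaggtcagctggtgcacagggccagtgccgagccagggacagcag
The core was found 2 times in the Nppa window, 1 time in the Ucp3 window and not in the Nppb window. It is short and common: 40.7% of 32851 RefSeq windows of that length hold it, and 10.1% hold the longer form TNAAGTG, which overlaps it and occurs 1 time each in the Nppa and Ucp3 windows. The letters AGGTCA, the single site of many nuclear receptors, were found 2 times in the Ucp3 window and in 14.0% of all windows. These matches describe the sequence and were not tested for binding.

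Cardiac transcription factors lay below I183P in delta more often than above. Of 32 tested, 4 read lower (12.5%, beside 4.28% of all features) and 2 higher (6.25%, beside 7.39%) at an unadjusted p under 0.05 in limma. Without overlap, 7 stood below and 2 above, beside 7.63% and 13.6% of all features. The deleted gene, Nkx2-5, is itself among the 4 and the 7. The median was -0.17 (from -0.59 to 0.01 over the alternatives), and it was 0.01 against I183P replicate 3 alone. On 11 arrays, 1 passed, Nkx2-5. Tbx5, a T-box partner of NKX2-5, read 3.40, 3.50 and 2.93 in I183P and 2.68, 2.56 and 2.22 in delta. The groups did not overlap, but I183P replicate 3 lay nearer to delta. The difference was -0.79 (SE 0.21, limma adjusted p 0.402), and -0.44 against that array alone. Control replicates 2 and 3 read 2.63 and 2.79, so the I183P arrays were above them.

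Smyd1, a muscle methyltransferase of histones and sarcomere proteins, read 4.05, 4.20 and 4.51 in I183P and 4.78, 4.76 and 4.96 in delta. Delta was higher on every array, by 0.58 (SE 0.15, limma adjusted p 0.402), while a second, dimmer probe differed by 0.07. Irx1, an Iroquois factor, differed by -0.51 (SE 0.15). Of 17 tested genes reported elsewhere as activated by Nkx2-5, 13 differences were above 0 and 4 below. At an unadjusted p under 0.05 in limma, 2 read higher (Nppb and Nppa) and 2 lower (Kcnh2 and Adora1). These are 11.8% each, beside 7.39% higher and 4.28% lower of all features. The median was 0.04 (from -0.38 to 0.19 over the alternatives).

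Ion channel genes gave single differences rather than a shift of the list. Of 30 potassium channel genes tested, 3 read higher and 3 lower at an unadjusted p under 0.05 in limma. These are 10.0% each, beside 7.39% higher and 4.28% lower of all features. The list median was -0.02 (from -0.44 to 0.01 over the alternatives). Of the 3 higher, Kcnn1 was above background on no I183P array and was tested only through its delta arrays. Kcnh2, which carries the rapid repolarising current, read 2.09, 1.96 and 1.82 in I183P and 1.56, 1.40 and 1.29 in delta. Kcnv2, a modifying subunit, read 1.35, 1.53 and 1.38 against 0.91, 0.93 and 0.53. Both were lower on every delta array, with differences of -0.54 (SE 0.13) and -0.63 (SE 0.15). Kcnip2, the subunit that sets the fast transient outward current, read 0.40, 0.80 and 0.49 against 0.99, 1.16 and 1.30, higher on every delta array by 0.59 (SE 0.15, limma adjusted p 0.402). Of 33 calcium cycling genes and 18 sodium channel and pump genes, 0 in each reached an unadjusted p under 0.05 in limma.

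In adrenergic and cyclic nucleotide signalling, 41 genes were tested. At that level 4 read lower (9.76%, beside 4.28% of all features) and 1 higher (2.44%, beside 7.39%). The median was -0.05 (from -0.47 to 0.05 over the alternatives). Besides Pde5a, the adenosine receptor gene Adora1 read -0.13, 0.38 and 0.20 in I183P and -0.43, -0.49 and -0.59 in delta. Every delta array was the lower, at a difference of -0.65 (SE 0.16, limma adjusted p 0.379). Adra1b, an alpha adrenergic receptor, differed by -0.53 (SE 0.20) on its brighter probe and by 0.18 on the other. Prkar1a, the regulatory subunit of protein kinase A, differed by 0.36 (SE 0.10), but by -0.06 with each array's median as the reference. Its second, dimmer probe, above background on all 6 arrays, differed by 0.10.

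Signalling lists of development had members on both sides. In the Wnt list, 19 of 37 differences were below 0 and 18 above, with 5 lower (13.5%, beside 4.28% of all features) and 2 higher (5.41%, beside 7.39%) at an unadjusted p under 0.05 in limma. Wnt9a, a ligand, read 1.48, 1.28 and 1.32 in I183P and 0.87, 0.50 and 0.75 in delta, and Rspo1, an amplifier of Wnt signals, read -1.46, -1.84 and -2.28 against -0.67, -0.77 and -0.95. Neither overlapped: Wnt9a was the lower in delta, at -0.65 (SE 0.14), and Rspo1 the higher, at 1.06 (SE 0.23), with limma adjusted p of 0.349 and 0.352. The receptor gene Fzd8 differed by -0.67 (SE 0.15) and the ligand gene Wnt6 by 1.02 (SE 0.30, and 0.32 with normexp). In the BMP and TGF-beta list of 36 genes, 2 read higher (5.56%, beside 7.39% of all features) and 3 lower (8.33%, beside 4.28%). Among them Smad3, which passes on the TGF-beta signal, differed by -0.51 (SE 0.15). Inhba, an activin subunit, differed by -0.67 (SE 0.22) and Nog, a BMP inhibitor, by 0.59 (SE 0.19).

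Most matrix genes had differences below 0, but few stood out singly. Of 54 collagen and matrix genes tested, 3 were lower (5.56%, beside 4.28% of all features) and 0 higher at an unadjusted p under 0.05 in limma, the groups did not overlap in 9.26%, beside 21.3% of all features, 41 of the 54 differences were below 0, and the median was -0.23 (from -0.65 to -0.13 over the alternatives) beside 0.08 for all features. Emilin3, a matrix glycoprotein, read -1.47, -1.60 and -2.37 in I183P and -4.03, -3.56 and -4.26 in delta. No delta array came near the I183P range, and the difference was -2.14 (SE 0.30), or -1.24 with normexp, with a limma adjusted p of 0.0453 on 11 arrays (1.1e-04 to 0.893 over all alternatives). Loxl2, which crosslinks collagen, differed by -0.42 (SE 0.14) on the brightest of its probes and by -0.07 and -0.16 on the others, and the laminin gene Lama2 by -0.30 (SE 0.10). The fibroblast markers had a median of -0.20 over 18 genes (from -0.62 to -0.09), with 12 differences below 0 and 6 above. At an unadjusted p under 0.05 in limma, 1 was lower (5.56%, beside 4.28% of all features) and 0 higher. The groups did not overlap in 5.56%, beside 21.3% of all features. The 1 lower gene, Pi16, a marker of adventitial fibroblasts, read 4.75, 4.36 and 4.38 against 4.09, 3.61 and 3.43. Pi16 was lower on every delta array, at a difference of -0.78 (SE 0.21). In tissue RNA, fewer cells of a type and less RNA per cell cannot be told apart.

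Smooth muscle and pericyte markers had a median of -0.14 over 15 genes (from -0.56 to -0.08 over the alternatives), with Cspg4, of pericytes, at -0.44 (SE 0.15) and Cnn1, of contractile smooth muscle, at -0.62 (SE 0.21). The genes of MHC class II, which present antigen on macrophages, dendritic cells and B cells, had the lowest median of the 44 lists, -0.39 over 9 genes (from -0.81 to -0.26), with 3 lower (33.3%, beside 4.28% of all features) and 0 higher at an unadjusted p under 0.05 in limma. Cd74, the invariant chain, read 4.38, 4.44 and 4.37 in I183P and 4.07, 3.75 and 3.75 in delta. H2-Aa read 1.59, 1.90 and 2.18 against 1.51, 1.13 and 1.25. Both were lower on every delta array, at -0.54 (SE 0.13) and -0.59 (SE 0.19), while for H2-Ab1, at -0.51 (SE 0.20), I183P replicate 1 read just below delta replicate 1. The macrophage and monocyte markers had a median of 0.01 over 19 genes, with 0 at an unadjusted p under 0.05 in limma.

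Interferon response genes had a median of -0.05 over 44 genes, with 2 higher and 2 lower (4.55% each, beside 7.39% and 4.28% of all features). Eif2ak2, the RNA-sensing kinase PKR, read 0.44, 0.20 and 0.24 in I183P and -0.23, -0.53 and -0.31 in delta, lower on every delta array, at -0.65 (SE 0.13, limma adjusted p 0.334). Psmb9, an immunoproteasome subunit, differed by -0.36 (SE 0.13).

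**Figure D4:**
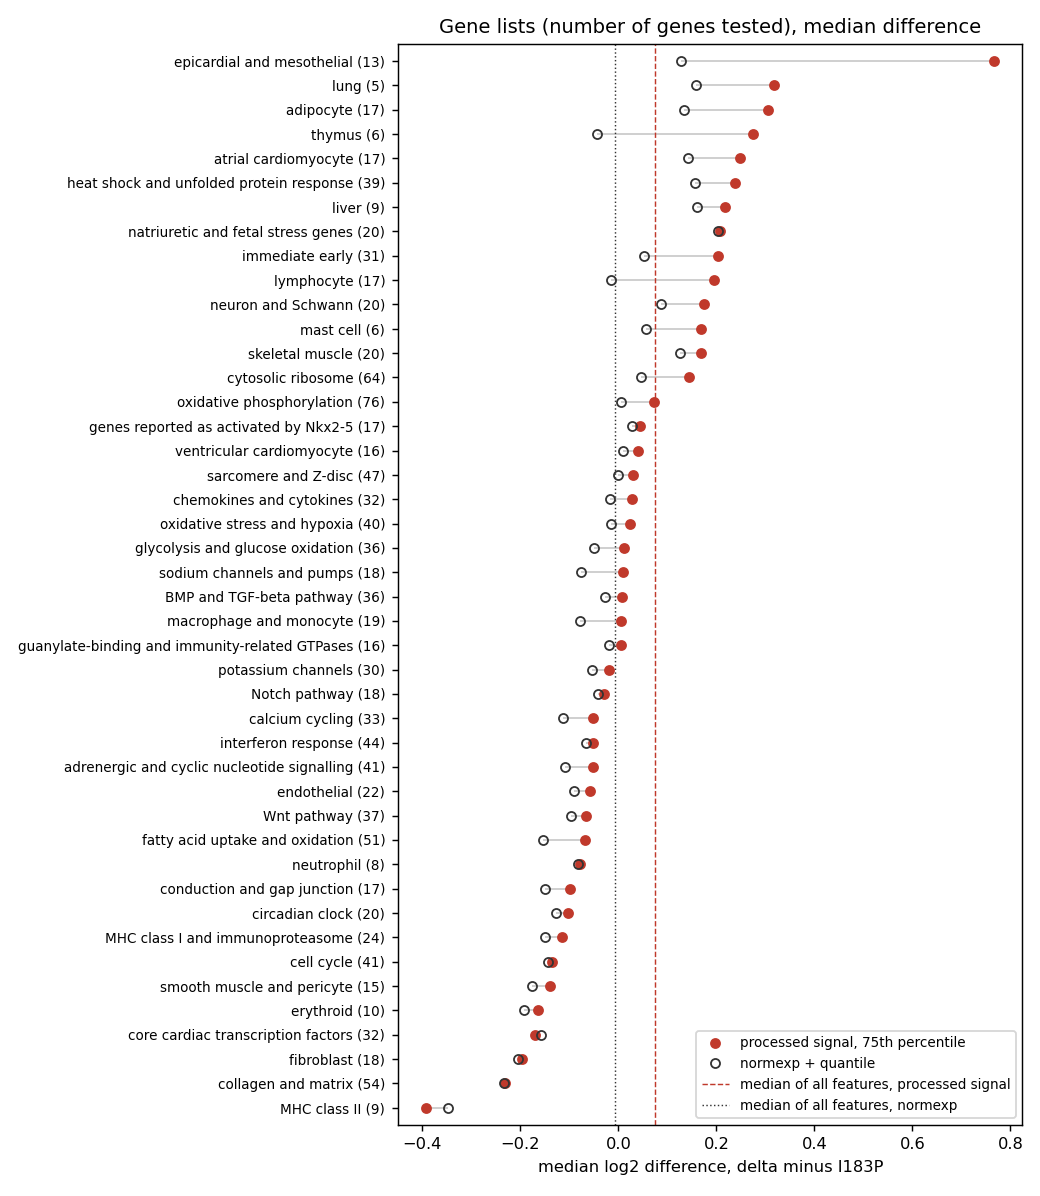
Median log2 difference (delta minus I183P, horizontal axis) of the tested genes of each of 44 gene lists, with the number tested in parentheses. Filled points are from the processed intensity and open points after normexp and quantile normalization; vertical lines give the medians of all features, 0.08 and -0.01. MHC class II, collagen and matrix and fibroblast lie lowest under both, and the epicardial and mesothelial median drops from 0.77 to 0.13.

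Some immediate early and stress-response genes had higher levels in delta, with much of the size from single arrays. Of 31 immediate early genes, 7 were higher (22.6%, beside 7.39% of all features) and 0 lower at an unadjusted p under 0.05 in limma, with a median of 0.20 (from -0.22 to 0.29 over the alternatives, and 0.05 with normexp). Atf3, a stress-induced transcription factor that is on this list and the next, read -1.14, -0.92 and 0.56 in I183P and 0.68, 1.20 and 2.31 in delta. The groups did not overlap, but I183P replicate 3 lay just below delta and delta replicate 3 was far the highest. The difference was 1.89 (SE 0.60, limma adjusted p 0.414), and 0.83 against I183P replicate 3 alone. Maff, a small partner of bZIP factors, differed by 0.47 (SE 0.16), and Btg2, an antiproliferative gene, by 0.36 (SE 0.12), which became -0.07 with each array's median as the reference.

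Of 39 heat shock and unfolded protein response genes, 3 were higher (7.69%, near the 7.39% of all features) and 0 lower at that level, with a median of 0.24 (from -0.18 to 0.37 over the alternatives). Hspa1a, the inducible chaperone HSP70, read -2.46, -2.70 and -1.76 in I183P and -1.07, -0.60 and 2.65 in delta. Delta replicate 3 stood far above the other 5 arrays. The difference was 2.63 (SE 1.00) and fell to 1.47 without that array. Trib3, a target of the integrated stress response, differed by 0.53 (SE 0.17).

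The translation and respiration machinery differed little. In 62 of 64 cytosolic ribosomal protein genes the difference was above 0, beside 14635 of the 23870 features. In 29 of the 64 (45.3%) delta stood above I183P without overlap, beside 13.6% of all features. The median was only 0.14, or 0.05 with normexp, and -0.28 with each array's median as the reference. Rps21 and Rpl4 differed by 0.42 (SE 0.11) and 0.35 (SE 0.12), and both turned negative with that reference. Oxidative phosphorylation genes had a median of 0.07 over 76 genes (from -0.35 to 0.23). At an unadjusted p under 0.05 in limma, 2 were higher (2.63%, beside 7.39% of all features) and 0 lower. Atp5c1, a subunit of ATP synthase, differed by 0.52 (SE 0.12), and Ndufb2, of complex I, by 0.28 (SE 0.10), which was -0.14 with each array's median as the reference. Sarcomere and Z-disc genes had a median of 0.03 over 47 genes (from -0.39 to 0.16).

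Markers of the mesothelial layer that covers the heart had the highest median, 0.77 over 13 genes, but 0.13 with normexp and from -0.00 to 0.98 over the alternatives; 4 were higher (30.8%, beside 7.39% of all features) and 0 lower at an unadjusted p under 0.05 in limma. Krt18, a keratin, read -0.87, -1.17 and -0.72 in I183P and 0.18, 0.26 and -0.14 in delta, above on every delta array by 1.03 (SE 0.17, and 0.85 with normexp). The keratin genes Krt8 and Krt19 differed by 1.21 (SE 0.35) and 1.77 (SE 0.53), and by 0.45 and 0.66 with normexp. Lrrn4, the other of the 4, was not well above background on any I183P array and was tested only through its delta arrays. Its measured means were -4.62 in I183P and -3.14 in delta, and the difference was 0.36 with normexp, so no fold is given. Of 20 tested markers of nerves, 2 were higher (10.0%, beside 7.39% of all features) and 0 lower, with a median of 0.17, or 0.09 with normexp. Among them Chat, which makes acetylcholine, read -1.28, -1.22 and -0.58 in I183P and 0.17, 0.56 and 0.30 in delta. Chat was above on every delta array by 1.37 (SE 0.23, limma adjusted p 0.317), whereas Dbh, which makes noradrenaline, was below without overlap at -1.36 (SE 0.66). The part of differing tissue pieces in these values was not tested.

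The genes that ranked highest by p on the delta side were mostly dim. Defb8, a defensin, read -3.85, -3.95 and -3.67 in I183P and -2.57, -2.66 and -2.65 in delta. The difference was 1.20 (SE 0.11, limma adjusted p 0.173) without overlap, and 0.41 with normexp. Sprr1a, a cornified envelope gene that heart muscle induces under stress, read -4.80, -4.62 and -4.09 against -2.92, -2.46 and -2.73, and was above background on 1 of the 3 I183P arrays. All delta arrays were above, by 1.80 (SE 0.23), and it passed limma on 11 arrays (adjusted p 0.0303, 0.0303 to 0.893 over all alternatives), but the difference was 0.45 with normexp. Fbxw20 and A730082K24Rik were not well above background on any I183P array, where their measured means were -6.19 and -5.87 against -4.31 and -3.60 in delta. Both were thus tested only through their delta arrays, and their differences were 0.23 and 0.24 with normexp, so no fold is given. With normexp the differences of Plet1, Cldn34c1 and Bex4 were 0.29, 0.18 and 0.42, against 1.06, 1.19 and 1.15 on the processed intensity. For dim genes like those of this paragraph, the normexp offset of 50 lowers any difference. The smaller normexp values are therefore no check on them.

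A few genes on that side were brighter. Angpt2, which counteracts angiopoietin 1 on vessels, read -0.60, -0.65 and -0.57 in I183P and 0.27, 0.12 and 0.30 in delta. The arrays of each line were close together and the lines apart by 0.84 (SE 0.10, limma adjusted p 0.205), or 0.65 with normexp. Rbm12b1 differed by 0.99 (SE 0.13), or 0.62 with normexp. On the lower side, Lcn6 differed by -1.29 (SE 0.20) on the probe used and by 0.06 on its other probe, and Pctp, which transfers phosphatidylcholine, by -0.81 (SE 0.13). The Olfr612 probe was not above background on any delta array, a second probe of this gene differed by 0.82, and no fold is given.

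The dimmest features carried much of the shift towards delta. With the features cut by mean level into 4 bins of equal size, the median difference was 0.37 in the dimmest bin and 0.07, -0.00 and 0.05 in the next 3, and with normexp it was -0.02 in the dimmest. Delta replicate 2 had a median level of -2.91 in that bin, while the other 5 arrays lay between -3.93 and -3.51. Its slide neighbours did not share that level. Without this array the median difference of all features was 0.07, and the difference of the dim gene Sprr1a was 1.67.

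**Figure D5:**
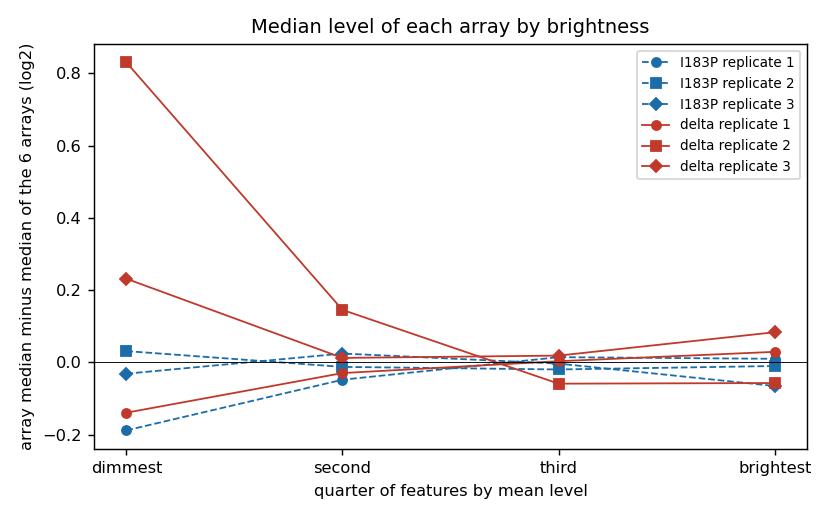
Median log2 level of each of the 6 arrays within 4 equal bins of the features ordered by mean level, from dimmest to brightest, minus the median of the 6 arrays. Blue dashed lines are I183P and red solid lines delta. Delta replicate 2 lies above the other arrays in the dimmest bin, and all 6 arrays lie close together in the brighter bins.

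The slide went along with the genotype. I183P replicate 3, the I183P array on the delta slide, had its best rank correlation, 0.991, with delta replicate 1. Over all features tested, it was the I183P array nearest to the delta mean in 37.2%, against 28.2% and 34.6% for replicates 1 and 2. Among the 1763 features that read higher in delta at an unadjusted p under 0.05 in limma, these shares were 59.9%, 15.8% and 24.3%. Among the 1021 that read lower they were 35.3%, 37.3% and 27.4%. With slide as a fixed block, which compares the delta arrays with this array alone, 0 features passed in limma, as on the 6 arrays without it. The median difference of all features was then 0.09. The list medians of cardiac transcription factors, fatty acid, adrenergic and Wnt genes, below 0 on the 6 arrays, were then 0.01, 0.10, 0.05 and 0.12. Those of MHC class II, matrix and fibroblast genes stayed below 0, at -0.66, -0.15 and -0.14. Of the 81 genes and features checked, 74 kept their direction in every alternative run, Ucp3, Pde5a, Nkx2-5 and Nppb among them. Where the groups do not overlap, as for the genes just named, neither the slide block nor leaving out an array can turn the direction. The kept directions are therefore no check on the slide.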

How the data were processed

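Total RNA of Nkx2-5 delta/+ hearts (3 arrays) and Nkx2-5 I183P/+ hearts (3 arrays) was measured on single-colour Agilent arrays. Per the file headers, Agilent Feature Extraction 11.0.1.1 (protocol GE1_1100_Jul11, probe layout on mm9) read the images. The deposited scanner files hold spot intensities, including a processed intensity corrected for background within each array and not normalized between arrays. A deposited value table holds log2 values of the same arrays, by its range and its match to the scanner files, with array medians of 6.92 to 6.94; per the submitters' processing notes limma was used, and the exact steps are not given in the sources used here. It was an alternative only.

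Control spots and outlier flags were left out, spots of a probe averaged, and each array's 75th percentile of log2 processed intensity subtracted. Probes were tested if 3 or more of the 6 arrays read them well above background, a gene being read from its brightest tested probe. RefSeq accessions (assembly GRCm38.p6) named 27235 of 55681 probes, and none of that table's gene coordinates is given. The test was limma's (version 3.58.1, R 4.3.3; lmFit, eBayes, Benjamini-Hochberg over all features, threshold 0.05), checked on simulated data. The files give intensities and no read counts, so the number of arrays limits the precision.

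The genes named are Nkx2-5, the 10 with the smallest p in each direction (none passed), those passing after normexp, and up to 4 members per list by smallest p; genes passing only on 11 arrays, Ehhadh, Acot1, Myh7, Dnm1 and Syt10 were added after their values were seen. Some genes that the rule names are not reported here. The members and all 44 lists (1220 symbols, 1067 tested) were chosen with earlier results of these data known. Lists are described by counts and medians, without a test. Alternatives covered normalization, the filter on dim probes, the probe rule, the arrays in the fit, slide, replicate number and leaving out each array; normexp with 11 arrays was added after seeing the data.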

Additional observations from a re-analysis of the deposited data

How the results depend on the processing

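The count of 0 features past the threshold held in limma under 14 of the 21 alternatives. It was 2 (1 higher, 1 lower in delta; 1 listed and 1 named gene) with normexp and quantile normalization and equally with the authors' deposited value table, and 10 (3 higher, 7 lower; 2 listed, 3 named) with an intensity trend and robust variance. It was 17 (5 higher, 12 lower; 4 listed, 8 named) with 11 arrays in the fit and 23 (7 higher, 16 lower; 4 listed, 10 named) with 11 arrays after normexp and quantile normalization, an alternative added after seeing the data. With each array's median as the reference it was 251 (122 higher, 129 lower; 11 listed, 17 named), and the cause was not tested. Leaving out 1 array gave 0 to 3 features (0 to 1 higher, 0 to 2 lower; 0 to 1 listed and named), the 3 coming without I183P replicate 3. Nkx2-5 passed with 11 arrays (-0.78, and -0.83 after normexp) and in none of the other alternatives, and its difference lay between -1.20 and -0.69.

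Of 81 genes and features checked, 74 kept their direction in all alternatives run and 23 passed in at least 1. For a gene whose groups do not overlap, the slide block and leaving out 1 array cannot turn the direction. Acot1 turned to 0.19 with slide as a fixed block, which equals the value within slide 2. The other 6 turned with each array's median as the reference: Slc2a1 to -0.077, Prkar1a to -0.060, Rps21 to -0.0030, Rpl4 to -0.071, Ndufb2 to -0.14 and Btg2 to -0.065. The medians of 7 of 44 lists kept their sign throughout.

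Same-numbered replicates did not pair: their deviations from the group means correlated at 0.14, 0.21 and -0.07, and with the replicate block 0 features passed and Nkx2-5 differed by -0.78. With slide as a random block, 0 passed and the consensus correlation was 0.0073. Since only I183P replicate 3 shares the delta slide, slide and genotype are told apart by that array alone. Dim probes limit the rest. The offset of 50 used with normexp by itself draws the differences of dim probes towards 0. Smaller normexp values there cannot tell whether a dim difference is sound.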

Other observations

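Some of the widest gaps between the lines lay outside the gene groups described above, in features picked after their values were seen. Syt10, a synaptotagmin known from neurons, read 4.60, 4.98 and 5.36 in I183P and 2.84, 1.33 and -1.95 in delta. Every delta array was below, but the 3 delta arrays differed from each other by more than most genes differed between the lines. The difference was -4.24 (SE 1.19, limma adjusted p 0.405), and -2.89 without delta replicate 3. Dnm1, the dynamin of synaptic vesicle uptake, read 3.90, 4.10 and 4.70 against 2.45, 1.55 and 0.71, in the same order of delta arrays, with a difference of -2.66 (SE 0.47, limma adjusted p 0.317). A second, dimmer probe of Dnm1, above background on all 6 arrays, differed by 0.19. The layout was graded over the delta arrays, unlike that of Pde5a and Slc49a4, whose delta arrays were nearly equal.

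Among features that the tables do not name, ENSMUST00000065508 had the smallest limma p of all 23870. It read -2.12, -2.15 and -1.69 in I183P and 0.67, 0.69 and 1.26 in delta, without overlap, at 2.86 (SE 0.22), or 2.27 with normexp. It passed in limma with normexp on the 6 arrays (adjusted p 0.0183, 3.2e-04 to 0.893 over all alternatives). On the lower side, AK035477 read -0.06, 0.04 and 0.38 against -1.20, -1.16 and -1.25, at -1.32 (SE 0.14). Its delta arrays were close together and below every I183P array.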
